A study of Mus musculus with 12 samples.

Results

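Plasma membrane transporters of amino acids were examined in freshly isolated and cultured muscle satellite cells of the mouse, the stem cells that lie along muscle fibres and repair them. The set comprised 10 genes, Slc3a2, Slc7a1, Slc7a2, Slc7a5, Slc7a11, Slc1a4, Slc1a5, Slc38a2, Slc38a4 and Slc6a6. Every probe set (a group of short DNA probes for a transcript) that the array's annotation assigned to exactly 1 of these genes was taken, whatever its signal. This gave 17 probe sets of the 22690 on the array, and 10 of the 12393 genes that have such a probe set. The genes were chosen by name, with earlier results of these data known.

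Each of 3 groups had 4 arrays, and all cells came from hind limb muscles of C57BL/6J mice aged 8 to 12 weeks. Activated satellite cells (ASC) were sorted as positive for the surface antigen SM/C-2.6, which marks satellite cells, and then cultured for 4 days with 20% fetal calf serum and 2.5 ng/ml basic fibroblast growth factor. Quiescent satellite cells (QSC) were sorted by the same antigen and taken at once, and per the labels nearly all stained for the satellite cell factor Pax7. Non-myogenic cells (NMC) were negative for both SM/C-2.6 and the leukocyte antigen CD45, were also taken at once after sorting, and held few myogenic cells. Only ASC were cultured, so activation cannot be told apart from culture, serum, growth factor and time since sorting. Total RNA was labelled with biotin by a small-sample kit (2 ASC, 2 QSC and 1 NMC array) or a two-cycle kit (2 ASC, 2 QSC and 3 NMC arrays). The labels do not say whether arrays came from separate animals or cultures, so the p-values measure the spread between these arrays, which may be technical.

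Pax7 and Myod1 fitted the labels, while the list of myoblast markers was mixed between ASC and QSC. Pax7 averaged 90.2 ± 31.7 scaled signal units in ASC, 1071 ± 572 in QSC and 4.07 ± 2.42 in NMC. The summed signal of 5 quiescent satellite cell markers, Pax7 among them, was 1046 to 1461 in ASC, 8567 to 12805 in QSC and 443 to 685 in NMC. All 5 were lower in ASC than in QSC and higher in QSC than in NMC. Against NMC, 3 were higher in ASC and 1 lower (Chodl, log2 difference -4.57), and Calcr was not called (-0.02). The myoblast factor Myod1 averaged 4629 ± 1244 in ASC, 1277 ± 328 in QSC and 36.2 ± 3.96 in NMC. Of 5 myoblast markers, 2 were higher in ASC than in QSC (Myod1 and Myog, log2 differences 1.85 and 1.26). Myog varied widely between the ASC arrays (1780 ± 1945, against 456 ± 127 in QSC). Another 2 myoblast markers were lower in ASC (Myf5 and Cdh15, -2.16 and -1.08), and Des was not called (0.08). Their summed signal was 7790 to 11119 in ASC, 4712 to 8264 in QSC and 242 to 480 in NMC. Endothelial and fibroblast markers gave more signal in both freshly sorted groups than in ASC. The summed signal of 7 endothelial markers was 69.5 to 123 in ASC, 2618 to 4649 in QSC and 11308 to 13773 in NMC, and 7 of 7 were lower in ASC than in QSC. The summed signal of 5 fibroblast markers was 1135 to 1343 in ASC, 6451 to 14592 in QSC and 23352 to 44029 in NMC, and 5 of 5 were lower in ASC than in QSC. The sum of 5 mural cell markers was 2141 to 4719 in ASC, 4170 to 7188 in QSC and 8908 to 17661 in NMC. That of 5 myofibre markers was 613 to 7250 in ASC, 1527 to 5162 in QSC and 5900 to 19420 in NMC. Leukocyte marker sums ran from 134 to 203 in ASC, 140.4 to 354 in QSC and 136 to 329 in NMC. Neutrophil marker sums ran from 17.8 to 52.5 in ASC, 47.4 to 2133 in QSC and 33.0 to 68.8 in NMC, and 2 of the 2 markers tested were lower in ASC than in QSC. The sum of the 2 glia markers on the array was 30.2 to 53.6 in ASC, 59.0 to 148 in QSC and 110 to 178 in NMC. No marker was at 0 on any array. A measure of RNA quality, the ratio of 3' to 5' Gapdh signal, moved with the groups as well. It was 1.75 ± 0.411 in ASC, 4.02 ± 0.969 in QSC and 3.87 ± 0.916 in NMC (SD, n = 4 each). The same ratio for actin overlapped between groups, at 1.26 to 1.92 in ASC, 1.69 to 4.09 in QSC and 1.44 to 2.28 in NMC. The part of these other cells and of RNA quality in the differences given here was not tested, and in bulk samples fewer cells of a type and less RNA per cell cannot be told apart.

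Amino acids enter cells through several transporter families that differ in substrate and driving force. Slc3a2, the heavy chain known as CD98, carries partner light chains such as Slc7a5 and Slc7a11 to the cell surface. Sodium-coupled carriers such as Slc38a2 concentrate small neutral amino acids, and exchangers such as Slc7a5 then trade intracellular amino acids for leucine and other large ones, which activate the growth kinase complex mTORC1. Many transporter genes are targets of ATF4, a transcription factor translated when amino acids are scarce, which binds the C/EBP-ATF response element.

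The core of that element, TGATGNAA on either strand, was sought in RefSeq promoter windows (GRCm38.p6) that run from 250 bases before to 50 bases after each gene's start. Of 32851 windows of this length in the mouse table, 1304 held it, or 3.97%, and 23 held it more than once, or 0.07%. The table gave 9 windows for 6 of the 10 genes (Slc7a11, Slc7a1, Slc1a4, Slc38a2, Slc38a4 and Slc3a2), and 2 windows held the motif. Slc7a2, Slc7a5, Slc1a5 and Slc6a6 had no window and were not searched. The 2 windows with the motif are shown, with the motif in capitals, beside that of Slc38a2, which held none. The windows of Slc3a2, Slc7a1 and Slc38a4 also held none and are not shown. The Slc7a11 window lay at chr3:50443564-50443863, the Slc1a4 window at chr11:20332664-20332963 and the Slc38a2 window at chr15:96699679-96699978, all on the minus strand.
Slc7a11: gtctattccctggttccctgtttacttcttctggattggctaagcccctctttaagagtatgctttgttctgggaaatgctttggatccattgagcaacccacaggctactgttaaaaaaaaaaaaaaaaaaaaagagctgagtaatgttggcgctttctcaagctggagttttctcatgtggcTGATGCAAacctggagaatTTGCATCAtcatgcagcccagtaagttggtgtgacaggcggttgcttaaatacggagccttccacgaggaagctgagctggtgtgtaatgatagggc
Slc1a4: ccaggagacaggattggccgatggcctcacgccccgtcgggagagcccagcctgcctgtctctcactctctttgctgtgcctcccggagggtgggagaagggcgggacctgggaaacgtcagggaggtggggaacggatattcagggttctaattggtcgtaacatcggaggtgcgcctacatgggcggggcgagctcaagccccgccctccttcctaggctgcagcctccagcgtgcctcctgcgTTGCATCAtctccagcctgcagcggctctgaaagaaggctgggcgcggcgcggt
Slc38a2: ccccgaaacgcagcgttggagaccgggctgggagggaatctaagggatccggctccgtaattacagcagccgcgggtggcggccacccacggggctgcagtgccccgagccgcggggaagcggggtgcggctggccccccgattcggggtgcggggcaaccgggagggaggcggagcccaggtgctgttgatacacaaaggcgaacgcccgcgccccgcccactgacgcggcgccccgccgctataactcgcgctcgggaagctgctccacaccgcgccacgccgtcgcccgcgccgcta
In Slc7a11 the first match began 66 bases before the start and the second, on the opposite strand, began 47 bases before it. In Slc1a4 the match began 4 bases before the start and ran past it. A match describes these letters alone, and whether a factor binds there or bears on any value below was not tested. Sequence outside the windows was not searched, so a window without a match does not mean that the gene lacks the element.

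The transporters differed in both directions between cultured and freshly sorted satellite cells. Slc6a6, the taurine transporter, was 3.09-fold higher in ASC than in QSC. Slc38a2, a sodium-coupled carrier of small neutral amino acids, was 2.11-fold lower. Slc7a5 and Slc1a5 rose by less than 2-fold with overlapping arrays, and the common heavy chain Slc3a2 and the neutral carrier Slc1a4 did not pass the test. Signals were scaled to a common trimmed mean and tested on the log2(signal + pseudocount) scale, where a fold understates the change of dim probe sets. Of the 6 probe sets above the signal filter (1 for each of 6 genes), 3 were called higher and 1 lower in ASC than in QSC, against 30.7% higher and 37.6% lower of all 12072 tested (a call is a limma Benjamini-Hochberg adjusted p under 0.05). The median log2 difference of the 6 was 0.35, against -0.12 over all tested. The share called in either direction, 4 of 6, was thus near the 68.3% of the array as a whole. With unscaled deposited values 4553 of all probe sets were higher and 3158 lower in ASC than in QSC, against 3708 and 4540 after scaling, and 1316 were higher and 4259 lower in QSC than in NMC, against 3309 and 2893.

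**Figure D1:**
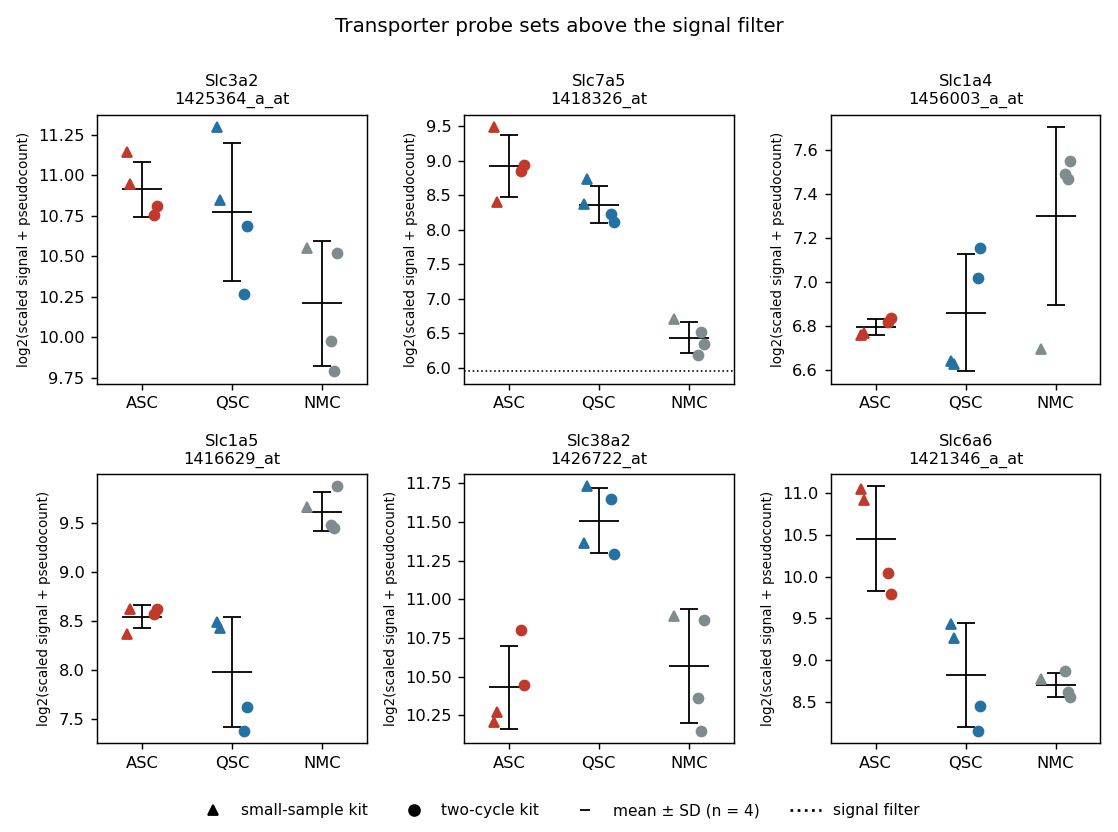
Log2(scaled signal + pseudocount) of the 6 probe sets above the signal filter in ASC, QSC and NMC; each point is an array, triangles mark the small-sample kit and circles the two-cycle kit, and bars give the mean ± SD (n = 4). Slc6a6 arrays of ASC and Slc38a2 arrays of QSC stand clear of the other groups, and Slc7a5 arrays of NMC lie near the dotted signal filter.

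The other 11 probe sets averaged less than the filter of 47 scaled signal units over the 12 arrays. They belonged to Slc7a1, Slc7a2 (3), Slc7a11, Slc1a4 (2), Slc38a4 (2) and Slc6a6 (2). Their values come from the same model fitted without the filter to all 20380 probe sets with 1 gene, and their signals are low. In that fit 5 of the 17 probe sets were higher and 3 lower in ASC than in QSC, against 19.7% and 31.3% of all 20380.

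**Figure D2:**
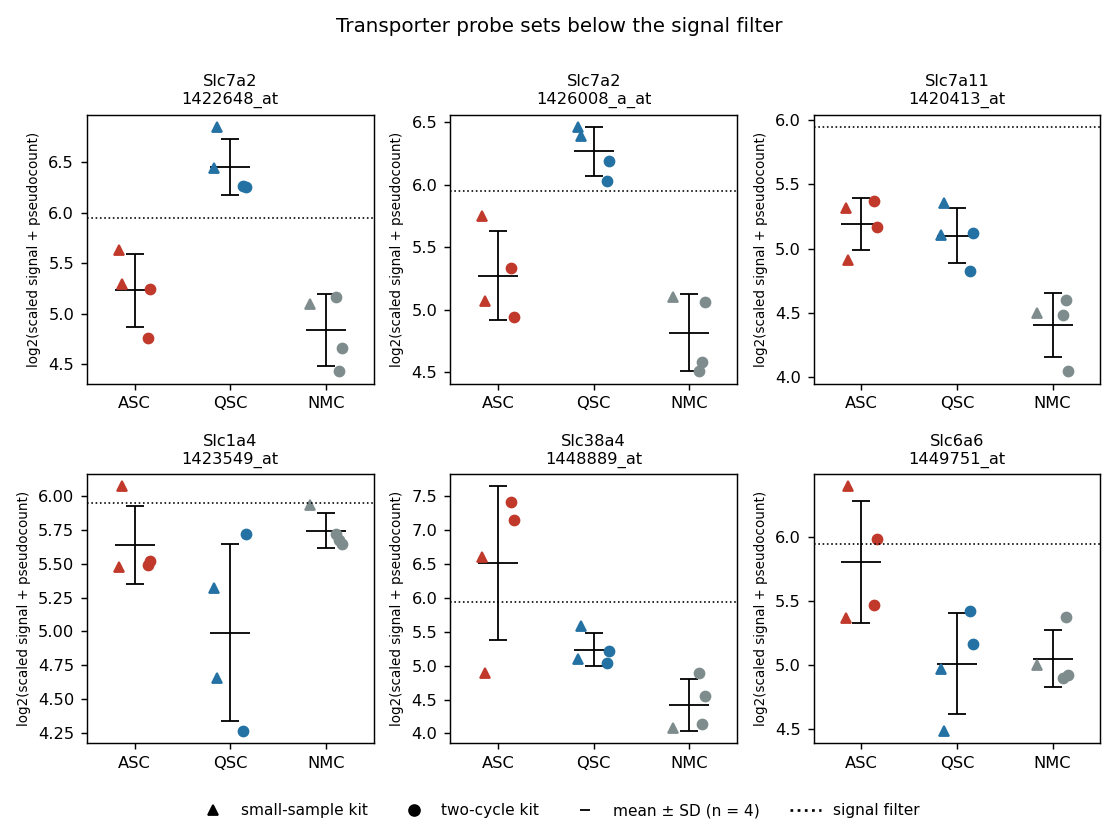
Log2(scaled signal + pseudocount) of the 6 of 11 probe sets below the signal filter that passed in at least 1 comparison without it, in ASC, QSC and NMC, drawn as for the probe sets above it. For 2 Slc7a2 probe sets the QSC arrays lie above both other groups, and Slc38a4 probe set 1448889_at has 3 ASC arrays above and 1 ASC array below the range of QSC.

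Slc3a2, the heavy chain, had its lowest mean in the non-myogenic cells. Its probe set (1425364_a_at) had 2245, 1955, 1712 and 1784 scaled signal units in ASC, 2506, 1830, 1219 and 1632 in QSC, and 1485, 992, 869.6 and 1455 in NMC. The ASC arrays all lay within the range of QSC and above every NMC array. The mean was 1924 ± 237 in ASC and 1797 ± 537 in QSC (SD, n = 4 each), a log2 difference of 0.14 ± 0.18 (SE) with a 95% interval of -0.26 to 0.53 and an adjusted p of 0.519. Against the 1201 ± 315 of NMC, Slc3a2 was 1.51-fold higher in ASC (adjusted p = 0.0117). The log2 difference between QSC and NMC was 0.46 ± 0.19 and missed the threshold (adjusted p = 0.0557). It passed without QSC replicate 3 (0.59, adjusted p = 0.029), without NMC replicate 4 (0.59, adjusted p = 0.0168) and under 6 other settings (adjusted p of 0.028 to 0.0497). Within the small-sample kit (1 NMC array) and the two-cycle kit, ASC exceeded NMC by 0.49 and 0.69 and QSC exceeded NMC by 0.52 and 0.38.

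Slc7a5, the light chain that exchanges large neutral amino acids such as leucine, was higher in both satellite cell groups than in the non-myogenic cells. Probe set 1418326_at had 707, 323, 449 and 478 in ASC, 316, 413, 286 and 264 in QSC, and 89.4, 58.0, 77.1 and 66.5 in NMC. No NMC array reached the lowest satellite cell array, whereas 1 ASC array fell inside the range of QSC. Slc7a5 was 5.37-fold higher in ASC than in NMC (log2 difference 2.42 ± 0.21, adjusted p = 2.18e-07). It was 3.64-fold higher in QSC than in NMC (1.87 ± 0.21, 95% interval 1.41 to 2.32, adjusted p = 8.47e-06), and the difference was 1.85 with the small-sample kit (1 NMC array) and 1.83 with the two-cycle kit. Between ASC and QSC the means were 489 ± 160 and 320 ± 65.7, a 1.47-fold difference (log2 0.56 ± 0.21, interval 0.11 to 1.00, adjusted p = 0.0278). That call was lost when any of 6 arrays was left out, QSC replicate 1, 3 or 4 or ASC replicate 1, 3 or 4, with log2 differences of 0.39 (without ASC replicate 1) to 0.55 and adjusted p of 0.0527 to 0.104. It was 0.39 with the small-sample kit (adjusted p = 0.416) and 0.72 with the two-cycle kit (adjusted p = 0.00503).

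Slc7a11, the light chain that brings in cystine in exchange for glutamate, was dim in all groups. Probe set 1420413_at had 25.1, 15.5, 26.6 and 21.3 in ASC, 19.8, 26.1, 13.6 and 20.1 in QSC, and 7.87, 7.71, 9.55 and 1.80 in NMC. Every satellite cell array lay above every NMC array, while ASC and QSC overlapped almost wholly. ASC exceeded NMC by 0.77 ± 0.17 and QSC exceeded NMC by 0.68 ± 0.17 on the log2 scale (adjusted p = 0.0023 and 0.00882 in the fit without a filter). Within the two-cycle kit QSC exceeded NMC by 0.60, which missed the threshold (adjusted p = 0.0624). Between ASC and QSC the log2 difference was 0.09 ± 0.17 with an interval of -0.28 to 0.46 (adjusted p = 0.689). It was 0.50 (adjusted p = 0.0247) with arrays centred on their medians and 0.56 (0.0142) after quantile normalization. Centring shifts every probe set of a fit by 1 common amount, here from 0.09 to 0.50. The shift was smaller in the filtered fit, where the median over all probe sets went from -0.12 to -0.03.

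The carriers of cationic amino acids differed from each other. Slc7a2, which takes up arginine and lysine, was higher in QSC than in either other group on 2 of its 3 probe sets. Probe set 1422648_at had 34.8, 24.5, 12.3 and 23.3 in ASC, 72.4, 101, 62.0 and 61.6 in QSC, and 19.6, 21.2, 6.82 and 10.6 in NMC. Probe set 1426008_a_at had 39.1, 18.8, 25.7 and 16 in ASC, 73.5, 69.2, 50.7 and 58.2 in QSC, and 19.7, 8.12, 9.30 and 18.8 in NMC. On both, all QSC arrays stood above all arrays of ASC and of NMC, and ASC overlapped NMC. In the fit without a filter the first probe set was 2.33-fold lower in ASC than in QSC (log2 difference -1.22 ± 0.18, interval -1.62 to -0.82, adjusted p = 0.000107). The second differed by -1.0 ± 0.18 (adjusted p = 0.000456). Within the small-sample kit the differences were -1.19 and -1.02, and within the two-cycle kit -1.26 and -0.97. Against NMC, QSC were 2.86-fold and 2.59-fold higher (adjusted p = 4.04e-05 and 7.62e-05). The log2 difference between ASC and NMC was 0.29 and 0.38 (adjusted p = 0.233 and 0.112). Both probe sets passed when arrays were centred on their medians (0.72 and 0.81, adjusted p = 0.00619 and 0.00295). They also passed when arrays were quantile normalized (0.62 and 0.72, adjusted p = 0.0214 and 0.00635). The shift by centring was common to all probe sets in the fit without a filter, so the 2 passes under it are not separate results. The third, 1450703_at, had values of 0.938 to 2.38 in ASC, 0.946 to 16.5 in QSC and 1.02 to 11.7 in NMC and passed in no comparison of that fit.

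Slc7a1, the widely expressed arginine and lysine carrier, gave no signal above the filter on any array with its 1 probe set (1421533_at). Its values ran from 7.74 to 18.9 in ASC, from 7.81 to 36.5 in QSC and from 9.28 to 18.9 in NMC. The log2 difference was -0.33 ± 0.21 between ASC and QSC (adjusted p = 0.211), 0.16 between QSC and NMC (adjusted p = 0.605) and -0.17 between ASC and NMC (adjusted p = 0.569). No comparison passed for Slc7a1 in the fit without a filter.

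Slc1a5, an exchanger of neutral amino acids that is a main entry route for glutamine in many dividing cells, was highest in the non-myogenic cells. Probe set 1416629_at had 316, 378, 364 and 379 in ASC, 344, 328, 151 and 182 in QSC, and 796, 698, 683 and 921 in NMC. Every NMC array lay above every satellite cell array, and the QSC arrays split by kit, with the 2 small-sample arrays inside the ASC range and the 2 two-cycle arrays below it. Slc1a5 was 3.30-fold lower in QSC than in NMC (log2 difference -1.72 ± 0.21, adjusted p = 1.82e-05). It was 2.22-fold lower in ASC than in NMC (-1.15 ± 0.21, adjusted p = 0.000261). Within the small-sample kit (1 NMC array) and the two-cycle kit, QSC differed from NMC by -1.21 and -2.10, and ASC by -1.17 and -1.0. The endothelial and fibroblast marker sums given above were also highest in NMC, and their part in these 2 differences was not tested.

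Between ASC and QSC, Slc1a5 averaged 359 ± 29.9 and 251 ± 99.1, a 1.48-fold difference (log2 0.57 ± 0.21, interval 0.12 to 1.02, adjusted p = 0.0263). The difference was 0.04 with the small-sample kit (adjusted p = 0.899) and 1.10 with the two-cycle kit (adjusted p = 0.000989). The test of that gap between kits gave -1.06 ± 0.28 with an adjusted p of 0.0549, in a fit where 4.66% of all probe sets passed. The call was lost without QSC replicate 3 (0.40, adjusted p = 0.0959), QSC replicate 4 (0.49, 0.0767), ASC replicate 3 (0.50, 0.0761) or ASC replicate 4 (0.48, 0.0836), all labelled with the two-cycle kit, and without a term for the kit (adjusted p = 0.0551).

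**Figure D3:**
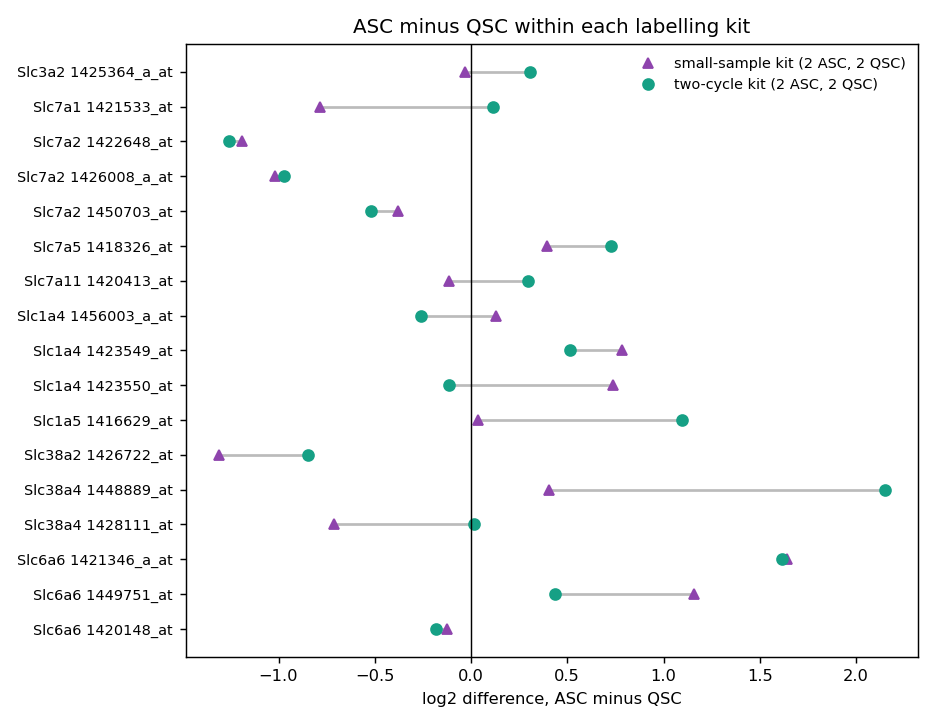
Log2 difference, ASC minus QSC, of all 17 probe sets within the small-sample kit (triangles) and the two-cycle kit (circles), each from 2 ASC and 2 QSC arrays. Slc6a6 1421346_a_at and 2 Slc7a2 probe sets gave nearly the same difference in both kits, whereas Slc1a5 (0.04 and 1.10) and Slc38a4 1448889_at (0.40 and 2.15) did not. The test of the gap between kits passed for neither (limma interaction in the fit without a filter, adjusted p = 0.0999 and 0.197).

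Slc1a4, which carries alanine, serine, cysteine and threonine, gave its highest mean in NMC on all 3 probe sets. The probe set above the filter, 1456003_a_at, had 93.7, 94.5, 98.1 and 99.7 in ASC, 85.2, 84.3, 115 and 128 in QSC, and 89.2, 165, 162 and 172 in NMC. The 3 NMC arrays labelled with the two-cycle kit stood above all others, and the fourth, labelled with the small-sample kit, lay among the QSC arrays. Between ASC and QSC the means were 96.5 ± 2.87 and 103 ± 21.7 (log2 difference -0.06 ± 0.15, interval -0.38 to 0.26, adjusted p = 0.712). Against the 147 ± 38.9 of NMC, ASC differed by -0.40 ± 0.15 (adjusted p = 0.0292). That call was lost after quantile normalization (-0.08, adjusted p = 0.663), with arrays centred on their medians (-0.26, 0.139), with unscaled values (-0.47, 0.0568) and without any of ASC replicates 3 and 4 and NMC replicates 2, 3 and 4 (-0.32 to -0.38, adjusted p of 0.0623 to 0.118). QSC differed from NMC by -0.34 ± 0.15 (adjusted p = 0.0772), and by -0.51 (adjusted p = 0.0168) without NMC replicate 1.

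The 2 Slc1a4 probe sets below the filter varied widely within QSC. Probe set 1423549_at ranged from 29.8 to 52.5 in ASC, from 4.54 to 38.0 in QSC and from 35.4 to 46.4 in NMC. Probe set 1423550_at ranged from 12.5 to 30.6 in ASC, from 3.99 to 36.9 in QSC and from 29.6 to 42.8 in NMC. Only the first passed in the fit without a filter, in QSC against NMC (-0.79 ± 0.27, adjusted p = 0.0375), and this call was lost under 14 alternatives (-0.36 to -1.20), among them leaving out QSC replicate 2 or 3, ASC replicate 4 or any NMC replicate, with -0.51 without QSC replicate 3. In that comparison the second differed by -0.73 ± 0.27 (adjusted p = 0.0501), and by -1.05 without QSC replicate 3 (adjusted p = 0.00519). In ASC against QSC they differed by 0.65 ± 0.27 (adjusted p = 0.058) and 0.31 ± 0.26 (adjusted p = 0.345). These 2 differences passed in some alternatives. The first passed with arrays centred on their medians (1.06, adjusted p = 0.00345) or without QSC replicate 4 (0.96, 0.00213). The second passed with centring (0.72, 0.0311) or without QSC replicate 3 (0.58, 0.0489). The shift by centring was common to all probe sets in the fit without a filter.

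Slc38a2 peaked in freshly sorted satellite cells. It encodes a sodium-coupled carrier of system A, which takes up alanine, serine, glutamine and other small neutral amino acids and is known to be induced by amino acid starvation. Probe set 1426722_at had 1166, 1222, 1771 and 1379 in ASC, 2623, 3383, 3197 and 2496 in QSC, and 1888, 1305, 1121 and 1854 in NMC. All QSC arrays stood above all ASC and all NMC arrays, and ASC and NMC overlapped. The means were 1384 ± 273 in ASC and 2925 ± 432 in QSC, a log2 difference of -1.08 ± 0.20 (interval -1.52 to -0.64, adjusted p = 0.000356). Both kits gave a lower level in ASC, with differences of -1.31 with the small-sample kit (adjusted p = 0.00442) and -0.85 with the two-cycle kit (adjusted p = 0.0171). QSC were 1.92-fold higher than the 1542 ± 388 of NMC (adjusted p = 0.00204), with log2 differences of 0.65 in the small-sample kit (1 NMC array) and 1.01 in the two-cycle kit, and this call was lost with unscaled values (0.54, adjusted p = 0.0582). ASC and NMC differed by -0.14 ± 0.21 with an interval of -0.59 to 0.31 (adjusted p = 0.565).

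Slc38a4, another system A carrier, lay below the filter on both of its probe sets. Probe set 1448889_at had 82.7, 15.1, 156 and 127 in ASC, 19.6, 33.5, 18.2 and 22.7 in QSC, and 2.23, 14.9, 2.85 and 8.88 in NMC. ASC replicate 2 lay below every QSC array and the other 3 ASC arrays well above them, so the groups overlapped. In the fit without a filter ASC were 2.42-fold higher than QSC (log2 1.28 ± 0.39, interval 0.44 to 2.11, adjusted p = 0.0139), with 0.40 in the small-sample kit (adjusted p = 0.626) and 2.15 in the two-cycle kit (adjusted p = 0.000323). The test of the gap between kits gave -1.75 and did not pass (limma interaction, adjusted p = 0.197). Without ASC replicate 3 the difference between ASC and QSC was 1.05 and the call was lost (adjusted p = 0.0501). ASC were 4.76-fold higher than NMC, with no overlap (log2 2.25 ± 0.39, adjusted p = 0.000301). QSC arrays also lay above all NMC arrays, but the difference of 0.97 ± 0.39 missed the threshold (adjusted p = 0.0725). It passed without ASC replicate 2 (0.88, adjusted p = 0.00973). Probe set 1428111_at ran from 2.44 to 41.0 in ASC, from 22.5 to 47.5 in QSC and from 12.4 to 22.9 in NMC and passed in no comparison of that fit. Without ASC replicate 2, which had 2.44, it passed in QSC against NMC (0.60, adjusted p = 0.0306) and in ASC against NMC (0.55, adjusted p = 0.0418), and without QSC replicate 4 in QSC against NMC (0.88, adjusted p = 0.0315).

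Slc6a6 showed the largest difference between ASC and QSC among the 6 probe sets above the filter. It encodes the sodium- and chloride-coupled transporter of taurine, an amino sulfonic acid that muscle accumulates to high levels. Probe set 1421346_a_at had 2113, 1924, 1037 and 873 in ASC, 675, 600.4, 269.5 and 334 in QSC, and 422, 452, 377 and 361 in NMC. Every ASC array lay above every array of the other groups, and QSC and NMC overlapped. Within ASC and within QSC the 2 small-sample arrays were the higher ones. The means were 1487 ± 623 in ASC and 470 ± 198 in QSC, a log2 difference of 1.63 ± 0.19 (interval 1.21 to 2.05, adjusted p = 6.25e-06). With the small-sample kit the difference was 1.64 (adjusted p = 0.00141) and with the two-cycle kit 1.62 (adjusted p = 8.65e-05). Against the 403 ± 41.6 of NMC, ASC were 2.93-fold higher (1.55 ± 0.20, adjusted p = 9.59e-06), with 2.22 in the small-sample kit (1 NMC array) and 1.24 in the two-cycle kit. QSC and NMC differed by -0.08 ± 0.20, with an interval of -0.50 to 0.35 (adjusted p = 0.76), but the kits went opposite ways, with 0.58 in the small-sample kit (1 NMC array) and -0.38 in the two-cycle kit.

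Of the 2 Slc6a6 probe sets below the filter, 1449751_at had 26.7, 69.6, 29.6 and 48.8 in ASC, 16.7, 7.64, 28.1 and 21.2 in QSC, and 17.3, 15.0, 26.8 and 15.6 in NMC. One ASC array fell inside the range of each other group. In the fit without a filter it was higher in ASC than in QSC by 0.80 ± 0.25 (adjusted p = 0.0158) and than in NMC by 0.80 (adjusted p = 0.0173). The first of these calls was lost without ASC replicate 2 (0.54, adjusted p = 0.0511) or QSC replicate 2 (0.63, adjusted p = 0.0548), and the second without ASC replicate 4 (0.76, adjusted p = 0.0533). Within the kits ASC and QSC differed by 1.16 (small-sample, adjusted p = 0.0759) and 0.44 (two-cycle, adjusted p = 0.202). Probe set 1420148_at was at most 8.31 on any array and passed in no comparison of that fit.

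**Figure D4:**
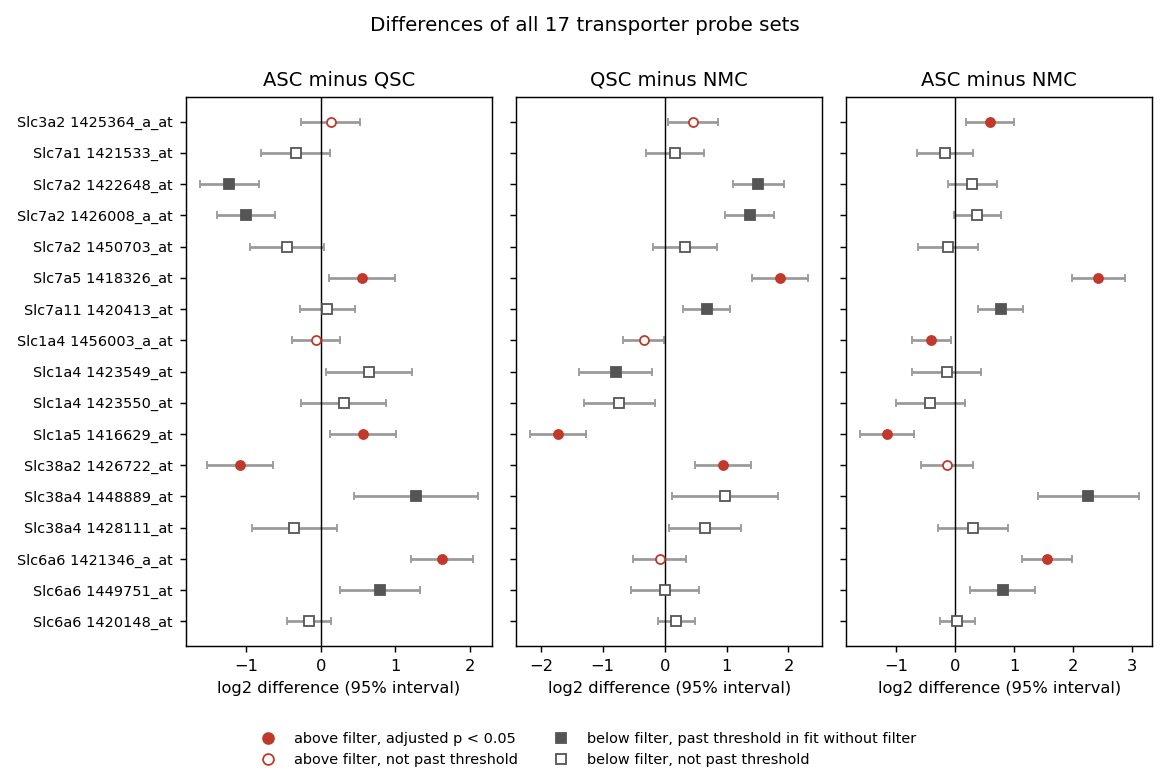
Log2 differences of all 17 probe sets with 95% intervals, for ASC minus QSC, QSC minus NMC and ASC minus NMC; circles are probe sets above the signal filter, squares those below it, and filled symbols passed the threshold. Slc38a2 and 2 Slc7a2 probe sets lie below 0 in ASC minus QSC and above 0 in QSC minus NMC, and Slc7a5 lies farthest above 0 in ASC minus NMC.

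Set against NMC, the 6 probe sets above the filter again moved both ways. In QSC against NMC, 2 were higher (Slc7a5 and Slc38a2) and 1 lower (Slc1a5), against 27.4% higher and 24% lower of all tested (51.4% in either direction). Their median log2 difference was 0.19, against 0.08 over all tested. In ASC against NMC, 3 were higher (Slc3a2, Slc7a5 and Slc6a6) and 2 lower (Slc1a4 and Slc1a5), against 34.1% and 35.9% (70% in either direction). Their median was 0.23, against -0.04. In the fit without a filter, 5 of the 17 probe sets were higher and 2 lower in QSC than in NMC, against 19.2% and 16% of all 20380, and 6 were higher and 2 lower in ASC than in NMC, against 21.9% and 26.9%. The 3 comparisons share arrays and are not independent. Arrays did not overlap for 2 of the 6 in ASC against QSC, 3 in QSC against NMC and 4 in ASC against NMC, against 51.3%, 38% and 58.4% of all probe sets tested.

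By order of level, Slc7a5 was highest in ASC, then QSC, then NMC, and the call between ASC and QSC was lost when any of 6 arrays was left out. Slc6a6 was highest in ASC, and QSC and NMC were not separated. Slc38a2 was highest in QSC, with ASC and NMC not separated in the main setting. Slc7a2, below the filter, was highest in QSC on probe sets 1422648_at and 1426008_a_at, with ASC and NMC not separated in the fit without a filter. Its probe set 1450703_at passed in no comparison of that fit. Slc1a5 was highest in NMC, then ASC, then QSC, and ASC and QSC were separated within the two-cycle kit but not within the small-sample kit. Slc3a2 had its lowest mean in NMC, where the step from QSC to NMC did not pass the test.

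Of 41 listed amino acid transporter genes outside the set, 25 were on the array with a probe set of 1 gene and 10 passed the filter. In ASC against QSC, 3 of these 10 were higher, 6 lower and 1 not called, against 30.7% higher and 37.6% lower of all tested. Their median log2 difference was -0.61, against -0.12 over all tested. The light chain Slc7a7, which exports cationic amino acids, averaged 18.7 ± 7.98 in ASC and 171 ± 21.4 in QSC, a log2 difference of -2.49 ± 0.18 (adjusted p = 4.42e-08), and was at 180.4 ± 23.4 in NMC. Slc38a3, the system N glutamine carrier, averaged 14.2 ± 8.87 in ASC and 147 ± 26.7 in QSC (-2.51 ± 0.19, adjusted p = 1.05e-07) and 31.2 ± 8.43 in NMC. Slc7a8, a light chain with a substrate range close to that of Slc7a5, averaged 11.6 ± 5.96 in ASC and 159 ± 76.5 in QSC (-2.64 ± 0.30, adjusted p = 3.57e-06) and 15.6 ± 10.1 in NMC. Slc38a3 and Slc7a8 were also higher in QSC than in NMC, by 1.76 and 2.37 on the log2 scale. Their ASC and NMC means lay below the filter of 47, so they passed it only through QSC. Slc1a1 passed it only through NMC (8.39 in ASC, 29.2 in QSC and 112 in NMC). The filter used the mean over all 12 arrays, so it partly set which of the listed genes were counted and in which direction.

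The 3 genes that rose were Slc7a3, Slc38a1 and Slc7a6. The cationic carrier Slc7a3 averaged 131 ± 27.0 in ASC and 46.0 ± 18.2 in QSC (1.30 ± 0.16, adjusted p = 9.27e-06). Its means in QSC and NMC (27.4 ± 11.6) lay below the filter of 47, so it passed only through ASC. The system A carrier Slc38a1 averaged 772 ± 214 in ASC and 342 ± 152 in QSC (1.20 ± 0.17, adjusted p = 2.69e-05), so it moved opposite to Slc38a2. Slc38a1 averaged 75.1 ± 48.0 in NMC, and ASC exceeded that by 2.98 on the log2 scale. The light chain Slc7a6 averaged 300.3 ± 79.2 in ASC and 124 ± 39.0 in QSC (1.18 ± 0.17, adjusted p = 3.06e-05).

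**Figure D5:**
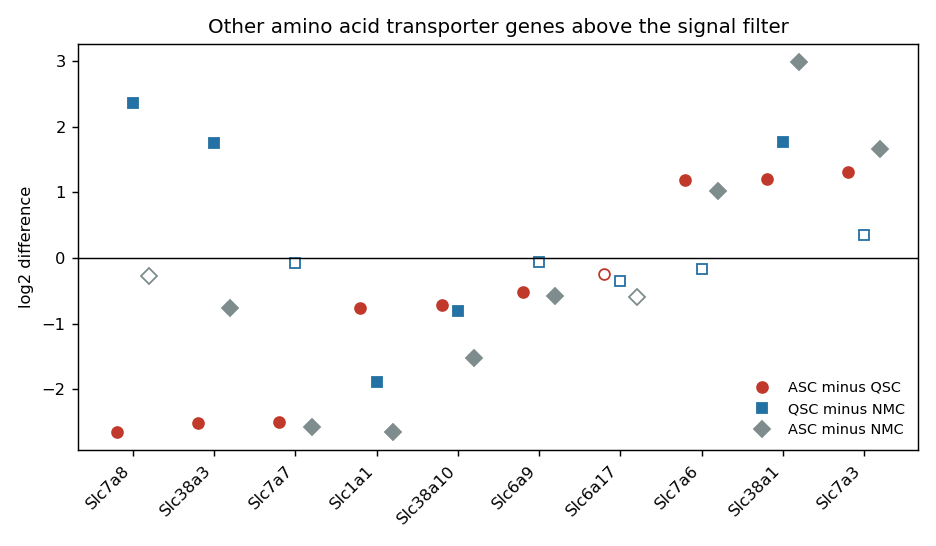
Log2 differences of the 10 listed amino acid transporter genes outside the set that passed the signal filter, for ASC minus QSC (circles), QSC minus NMC (squares) and ASC minus NMC (diamonds), with filled symbols past the threshold. Slc7a8, Slc38a3 and Slc7a7 lie lowest in ASC minus QSC, at -2.64, -2.51 and -2.49, and Slc38a1 lies highest in ASC minus NMC, at 2.98.

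Genes that use the transported amino acids were read from lists chosen for their function, with earlier results of these data known. Of 18 aminoacyl-tRNA synthetases, which load amino acids onto tRNA, 16 were higher and none lower in ASC than in QSC, against 30.7% and 37.6% of all tested, with a median log2 difference of 1.16, against -0.12. Cars, Gars, Aars and Farsa, which load cysteine, glycine, alanine and phenylalanine, rose by 1.73, 1.68, 1.54 and 1.29. Of 16 genes of the ATF4 response, 5 were higher and 9 lower (30.7% and 37.6% of all tested), with a median of -1.02. Asns, which makes asparagine, rose by 4.45 ± 0.18, and Eif4ebp1, Chac1, Psat1 and Trib3 rose by 1.81, 1.81, 1.35 and 0.81. The stress-induced factors Atf3 and Cebpb and the phosphatase subunit Ppp1r15a differed by -6.74, -3.86 and -3.54. Beside them, Slc38a2 differed by -1.08, Slc7a5 by 0.56 and Slc3a2 by 0.14.

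Of 9 cystine and glutathione genes tested, 5 were higher and 1 lower in ASC than in QSC (30.7% and 37.6% of all tested), with a median of 0.76. The glutamate-cysteine ligase subunit Gclm rose by 2.53 ± 0.35 (1.42 in the small-sample kit, 3.65 in the two-cycle kit). Chac1, which breaks down glutathione and is also on the ATF4 list, rose by 1.81, and glutathione reductase Gsr by 1.51. Cbs, which makes cystathionine on the route from methionine to cysteine, differed by -2.86 ± 0.25. Its means in ASC (21.7) and NMC (35.8) lay below the signal filter, so it passed only through QSC (221). The single taurine synthesis gene that passed the filter, Csad, averaged 42.8 ± 15.7 in ASC and 146 ± 30.4 in QSC (log2 difference -1.50 ± 0.20), so the taurine carrier and the enzyme that makes the precursor of taurine moved in opposite directions.

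Of 7 glutamine and glutamate genes tested, 4 were higher and 3 lower, against 68.3% of all tested called in either direction (30.7% higher and 37.6% lower), with a median of 0.78. Glul, which makes glutamine, averaged 261 ± 37.3 in ASC and 2626 ± 731 in QSC (-3.22 ± 0.22), whereas the aminotransferases Got1 and Gpt2 and the proline synthesis enzyme Aldh18a1 rose by 2.67, 1.20 and 2.06. Glud1 and Gpt differed by -0.61 and -0.44, and both calls were lost with unscaled values (-0.31 and -0.18) and with the small-sample kit alone (-0.30, adjusted p = 0.36, and -0.54, 0.0884). That of Gpt was also lost after quantile normalization (-0.09, adjusted p = 0.583), without a term for the kit (0.0972) and with the two-cycle kit alone (-0.34, 0.128). Of 8 genes of branched-chain amino acid breakdown, 3 were higher and 5 lower (30.7% and 37.6% of all tested), with a median of -0.67. The cytosolic aminotransferase Bcat1 rose by 4.34 ± 0.21, and the kinase Bckdk, which inhibits the next step, and the shared dehydrogenase subunit Dld rose by 1.03 and 0.55. Ivd, Dbt and Bckdhb, which act on the resulting keto acids and their products, differed by -1.77, -1.78 and -1.17. The rise of Dld was 0.30 with the two-cycle kit, where it did not pass (adjusted p = 0.166).

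Of 7 genes of arginine and polyamine metabolism, 2 were higher and 3 lower, near the 30.7% and 37.6% of all tested, with a median of -0.09. Spermidine synthase Srm rose by 1.29 (0.84 in the small-sample kit, adjusted p = 0.0596) and the antizyme inhibitor Azin1 by 0.73 (0.57 in that kit, adjusted p = 0.0796). Oat, which degrades ornithine, and Sat1, which acetylates polyamines, differed by -1.54 and -2.75. Nos3, the endothelial nitric oxide synthase, differed by -1.77 and was 27.3 ± 5.72 in ASC, 128 ± 7.70 in QSC and 524 ± 87.2 in NMC, an order shared with the endothelial marker sum. Of 22 genes of amino acid sensing and mTORC1, 5 were higher, 5 lower and 12 not called, against 68.3% of all tested called in either direction, with a median of 0.12. Sec13 and Lamtor1, which act in the sensing and lysosomal complexes, rose by 1.53 and 1.27, and the inhibitors Sesn1 and Tsc1 differed by -3.32 and -0.76. The count of higher genes in that list ran from 3 to 8 over the alternative settings. It was 3 without ASC replicate 1 or ASC replicate 2, where 3566 and 3486 of all 12072 probe sets were higher, against 3708.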

How the data were processed

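RNA of 12 samples (4 ASC, 4 QSC, 4 NMC) was hybridised to 1-colour Affymetrix mouse arrays. The deposited intensities are linear MAS5 signals of 22690 probe sets, per the submitters' processing notes, with MAS5 settings not stated there. Their 2% trimmed means were 323 to 502 on the 5 small-sample arrays and 160.4 to 236 on the 7 two-cycle arrays. All arrays were brought to the same trimmed mean, 235. A pseudocount of 14.7 (that mean divided by 16) was added before taking log2. Detection calls were not used here. Precision is limited by the 4 arrays per group.

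Of the probe sets, 20380 had 1 gene in the platform annotation, 691 several, 1555 none and 64 were controls, and 20351 were matched to RefSeq by gene ID. The 12072 (7961 genes) with a mean scaled signal of at least 47 were tested with limma 3.58.1 in R 4.3.3, with terms for group and kit over all 12 arrays (8 residual degrees of freedom) and Benjamini-Hochberg adjustment over all of them, with a call at an adjusted p under 0.05. No arrays held identical values, and the lowest correlation within a group was 0.891. On simulated data for ASC against QSC, 200 of 12072 probe sets were changed. There 73% of 2-fold and 98% of 4-fold changes were called, and 9 unchanged ones. The real comparison called 68.3% of probe sets, so these shares do not measure its power or its false calls.

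Same-numbered ASC and QSC arrays deviated together weakly (r of 0.300, 0.207, 0.172 and 0.313). They also share a kit, and the labels do not say that equal numbers mark shared material, so pairing by number is not established. A fit with the number as a block was an alternative, as were other scalings, filters, pseudocounts, single kits and leaving out each array.

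The genes and lists were chosen with earlier results of these data known. All probe sets of the 10 genes are described. From each list (1 probe set per gene, that with the highest mean) the text names up to 4 with the smallest adjusted p in ASC against QSC and any called against the direction of most. Alternatives for the probe sets below the filter were added after seeing the data.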

Additional observations from a re-analysis of the deposited data

Results flagged for a closer look

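Of 51 groups of 4 arrays (17 probe sets in 3 groups), 3 held an array far from the other 3 by Dixon's gap test, which flags about 1 group in 20 by chance. For Slc1a4 (1456003_a_at) NMC replicate 1 had a scaled signal of 89.2, against 162 to 172 on the other NMC arrays. It was also the only NMC array labelled with the small-sample kit. For Slc1a4 (1423549_at) ASC replicate 2 had 52.5, against 29.8 to 31.2. For Slc7a2 (1450703_at) NMC replicate 3 had 11.7, against 1.02 to 1.30. No interaction of kit and group passed for any of the 6 probe sets tested, nor for any of the 17 in the fit without a filter.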

How the results depend on the processing

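Beside the alternatives given with each gene, no direction of the 17 probe sets that was called turned round. In ASC against QSC 380 of 425 alternative values kept their direction and their side of the threshold, in QSC against NMC 350 of 408 and in ASC against NMC 377 of 408. In ASC against QSC, 3 of the 6 probe sets above the filter were higher and 1 lower. Over all 12072 tested, 3708 were higher and 4540 lower. The count of higher ones was 1 with the small-sample kit alone, where 2709 of all 12072 were higher. It was 5 of 17 with no filter, against 4009 of all 20380. With single arrays left out it was 1 to 3, against 3486 to 3698 of all 12072 (1 without QSC replicate 3 or 4 or ASC replicate 3 or 4). The count of lower ones was 3 of 17 with no filter, against 6388 of all 20380. In QSC against NMC, 2 of the 6 were higher, and 3309 of all 12072. The count was 5 of 17 with no filter, where 3915 of all 20380 were higher. It was 1 unscaled (1316 over all) and 2 to 3 with arrays left out (2885 to 3340 over all). There 1 of the 6 was lower, and 2893 over all. The count was 2 with the two-cycle kit alone (2836 over all), with no filter (3268 of 20380) or unscaled (4259). With arrays left out it was 1 to 2 (2 without NMC replicate 1), and 2603 to 2858 over all. In ASC against NMC, 3 of the 6 were higher, and 4120 of all 12072. With no filter 6 of 17 were higher, and 4467 of all 20380. There 2 of the 6 were lower, and 4330 over all. The count was 1 with a filter at 0.5 of the trimmed mean, where 3071 of all 8808 were lower. It was also 1 unscaled (4325 over all), centred on medians (3849), quantile normalized (3649) or with a replicate block (4018). With arrays left out it was 1 to 2, and 4017 to 4439 over all. The replicate block changed no call between ASC and QSC, but in ASC against NMC, where same-numbered arrays correlated at 0.401, -0.178, 0.250 and 0.361 and so were not all above 0.1, Slc1a4 (1456003_a_at) was lost (-0.40, adjusted p = 0.0926), as was Slc6a6 1449751_at (0.70, 0.0947). Fitting only the arrays of ASC and QSC, Slc7a5 missed the threshold (0.56, adjusted p = 0.0548). Unscaled, Slc3a2 was lost in ASC against NMC (0.51, 0.0781), the median over all probe sets was 0.17 rather than -0.12 in ASC against QSC and -0.29 rather than 0.08 in QSC against NMC, and Farsa in QSC against NMC turned to -0.014 (adjusted p = 0.961). Unscaled, Slc7a5 and Slc1a5 were each 0.86 in ASC against QSC. Centred on medians in the fit without a filter, Slc7a2 was -0.81 and -0.58 on the 2 probe sets called, by the common shift given with Slc7a11. Causes of these changes were not tested. Of the 17 probe sets, 11 lay below the filter, so low signal limits what can be said of Slc7a1, Slc7a2, Slc7a11 and Slc38a4.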
